A study of Mus musculus with 2 samples.

Results

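The genes described here encode the mitochondrial respiratory chain and its ATP synthase, from both the nuclear and the mitochondrial genome. They were taken by name from the mRNA rows of the count table: symbols beginning Ndufa, Ndufb, Ndufc, Ndufs, Ndufv, Ndufaf, Uqcr, Cox4 to Cox8 or Atp5, the 4 Sdh genes, Cyc1 and Cycs, and the 13 protein-coding genes of mitochondrial DNA. This gave 107 genes of the 46095 in the table, 94 nuclear and 13 mitochondrial. A name rule of this kind also takes 8 complex I assembly genes (7 Ndufaf genes and Atp5sl), and it leaves out subunits filed under other symbols.

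The respiratory chain passes electrons from NADH and succinate through complexes I and II to ubiquinone, then through complex III, cytochrome c and complex IV to oxygen. Complexes I, III and IV pump protons across the inner mitochondrial membrane, and complex V, the ATP synthase, uses the returning protons to make ATP. Most subunits are nuclear-encoded and imported, while mitochondrial DNA encodes a few hydrophobic core subunits of every complex except complex II. Leukaemia-initiating cells of acute myeloid leukaemia (AML) are known for their reliance on oxidative phosphorylation.

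RNA had been sequenced from sorted bone marrow cells of C57BL/6 mice aged 8 weeks with AML, taken as positive for Mac1 (the Itgam product) and c-Kit. There were 2 libraries: 1 had the genotype label wild type and a title ending in Scr, and 1 had the genotype label P2x7-KO, a knockout of the ATP-gated channel gene P2rx7, and a title ending in KD. The sources used here do not give how the leukaemia was made, which allele was used, or whether a library came from a single mouse or a pool. With 1 library a group, no difference below has a replicate check, no test was possible, and every interval is an exact 95% interval for counting error only.

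The libraries held 12456212 counts (labelled wild type) and 12435916 counts (labelled P2x7-KO). P2rx7, the targeted gene, went against its label: it had 229 counts in the wild-type-labelled library and 543 in the P2x7-KO-labelled library, a 2.27-fold higher scaled level (1.94 to 2.66). Directions below are therefore those of the labels only. Of the 6 monocyte and macrophage markers examined, 5 were at least 2-fold higher in the P2x7-KO-labelled library, all except Ly6c2, and their summed counts were 23546 and 51045. The 5 mast cell and basophil markers summed to 4605 and 511 counts, with Fcer1a at 0 in both libraries. Most of that sum was Cpa3, at 4058 and 280 counts, and Hdc had 266 and 24. Mcpt8, at 268 and 196 counts, and Ms4a2, at 13 and 11, were under 2-fold apart. The 7 erythroid markers summed to 16 and 135 counts. The 5 neutrophil markers summed to 40377 and 34359 counts, with 4 of them lower and 1 of these, S100a8, at least 2-fold lower. Ngp went the other way, at 10411 and 15336 counts (1.41-fold higher, 1.37 to 1.44). The 6 B lymphoid markers summed to 691 and 747 counts, mostly from Cd79b (681 and 684), while Jchain had 5 and 55. The 6 T and NK markers summed to 309 and 119 counts with Ncr1 at 0, and the 4 megakaryocyte markers to 474 and 115 with Pf4 and Ppbp at 0. The 6 non-haematopoietic markers summed to 3382 and 1729 counts with Alb at 0. The last 3 sums rest almost wholly on a single gene each: Nkg7 at 25.2 and 8.25 scaled counts per 1000000, Itga2b with 473 and 114 counts, and Pecam1 with 3371 and 1720 counts. Of the sort genes, Itgam was 2.90-fold higher in the P2x7-KO-labelled library (2.77 to 3.05) and Kit 1.47-fold higher (1.32 to 1.64). The part of these marker differences in the respiratory chain values was not tested. In bulk RNA a smaller share of cells of a type and less RNA per cell cannot be told apart.

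Promoters are shown first for 5 nuclear members that carry the core motif of NRF1, a transcription factor known for its part in the expression of respiratory chain genes. They were chosen after their values were seen, to cover the 3 lowest genes with the motif (Uqcrc1, Uqcr11 and Atp5k), the gene of cytochrome c (Cycs) and a gene at equality (Atp5g2). Each is 300 bases from RefSeq on GRCm38.p6, from 250 bases before the transcript start to 50 after it. Capitals mark the NRF1 motif CGCATGCG and, in Uqcr11, also the ETS motif CCGGAAGT.
Uqcrc1: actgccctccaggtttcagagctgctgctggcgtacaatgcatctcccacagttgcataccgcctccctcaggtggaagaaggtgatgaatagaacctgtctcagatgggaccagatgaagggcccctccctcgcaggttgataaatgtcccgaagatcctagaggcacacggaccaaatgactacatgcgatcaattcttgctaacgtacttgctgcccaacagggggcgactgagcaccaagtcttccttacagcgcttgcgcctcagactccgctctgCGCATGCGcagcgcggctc
Uqcr11: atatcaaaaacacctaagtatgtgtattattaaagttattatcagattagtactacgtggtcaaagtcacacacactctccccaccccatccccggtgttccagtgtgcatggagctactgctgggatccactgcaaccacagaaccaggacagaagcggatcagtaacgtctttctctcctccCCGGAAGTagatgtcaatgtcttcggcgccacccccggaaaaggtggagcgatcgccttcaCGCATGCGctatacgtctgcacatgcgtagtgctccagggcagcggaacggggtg
Atp5k: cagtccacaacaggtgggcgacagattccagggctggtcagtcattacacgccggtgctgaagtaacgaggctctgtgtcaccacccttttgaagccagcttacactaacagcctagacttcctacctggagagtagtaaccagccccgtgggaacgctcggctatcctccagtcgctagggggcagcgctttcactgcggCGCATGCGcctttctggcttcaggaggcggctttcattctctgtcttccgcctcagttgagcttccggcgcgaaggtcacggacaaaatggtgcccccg
Cycs: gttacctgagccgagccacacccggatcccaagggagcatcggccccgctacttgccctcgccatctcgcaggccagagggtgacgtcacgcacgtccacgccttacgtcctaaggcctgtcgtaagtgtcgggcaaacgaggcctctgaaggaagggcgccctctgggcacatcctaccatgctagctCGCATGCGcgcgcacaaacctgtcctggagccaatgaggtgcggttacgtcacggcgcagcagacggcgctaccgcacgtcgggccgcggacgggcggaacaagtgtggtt
Atp5g2: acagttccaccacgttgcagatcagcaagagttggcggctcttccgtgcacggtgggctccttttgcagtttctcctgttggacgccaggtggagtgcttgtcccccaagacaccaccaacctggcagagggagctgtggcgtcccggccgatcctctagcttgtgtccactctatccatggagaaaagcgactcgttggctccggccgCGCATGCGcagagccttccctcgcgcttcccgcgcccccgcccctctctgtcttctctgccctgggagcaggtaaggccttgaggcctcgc
The windows lie at chr9:108936398-108936697 (plus strand) for Uqcrc1, chr10:80406772-80407071 (minus strand) for Uqcr11, chr5:108434350-108434649 (minus strand) for Atp5k, chr6:50566520-50566819 (minus strand) for Cycs and chr15:102670998-102671297 (minus strand) for Atp5g2. The NRF1 motif began 61 bases before the start in Cycs, 49 in Atp5k, 41 in Atp5g2 and 5 in Uqcr11, and in Uqcrc1 it lay within the 50 bases after the start.

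Of the 94 nuclear members, 77 matched a RefSeq promoter. The motif CGCATGCG, which reads the same on both strands, was in 12 of them (15.6%): the 5 shown, Atp5j, Atp5l, Cox6a1, Ndufa8, Ndufa11, Ndufaf4 and Ndufaf5. It was in 2.07% of 27025 genes with a promoter and in 4.6% of the 9104 mRNA genes among them with at least 20 counts. The YY1 motif AAGATGGC, searched on both strands, was in 11 members (14.3%), against 3.19% of all genes and 5.66% of the counted mRNA genes. The ETS motif CCGGAAGT, bound by the GABP factor, was in 5 members (6.49%), against 4.31% and 9.84%, and TATAAA was in 7 (9.09%), against 15.7% and 8.41%, each searched on both strands. A match is a run of letters and no measured binding. The median log2 ratio between the libraries was -0.98 for the 12 members with the NRF1 motif and -0.75 for the 62 counted members without it. Among the 12 the ratios ran from -1.91 (Uqcrc1) to -0.04 (Atp5g2), so genes with the same motif differed widely.

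Nearly all respiratory chain genes were lower in the P2x7-KO-labelled library. Of the 94 nuclear members 89 had at least 20 counts over both libraries, and 87 of these lay below equality. The interval lay wholly below equality in 82 of them, against 34.7% of all 13363 genes counted, and wholly above it in 2, Uqcrfs1 and Cox4i2, against 35.6%. At least 2-fold lower were 25 nuclear members (28.1%), against 8.95% of all genes, and 1 was at least 2-fold higher, against 10.8%. At least 1.5-fold lower were 56 (62.9%), against 18.9%, and 1 was at least 1.5-fold higher, against 21.1%. The median log2 ratio of the nuclear members, P2x7-KO-labelled library over wild-type-labelled library, was -0.77, where that of all genes was 0.005. Together the nuclear members took 1.17% of all counts in the wild-type-labelled library and 0.794% in the other.

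The 13 mitochondrial genes were lower by a like amount but with a narrower spread. Of these, 12 lay below equality with their intervals, against 34.7% of all genes. At least 2-fold lower or higher were 0, against 8.95% and 10.8% of all genes. At least 1.5-fold lower were 8 (61.5%), against 18.9%. Their median log2 ratio was -0.64, and they took 3.09% of all counts in the wild-type-labelled library and 2.35% in the other.

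**Figure D1:**
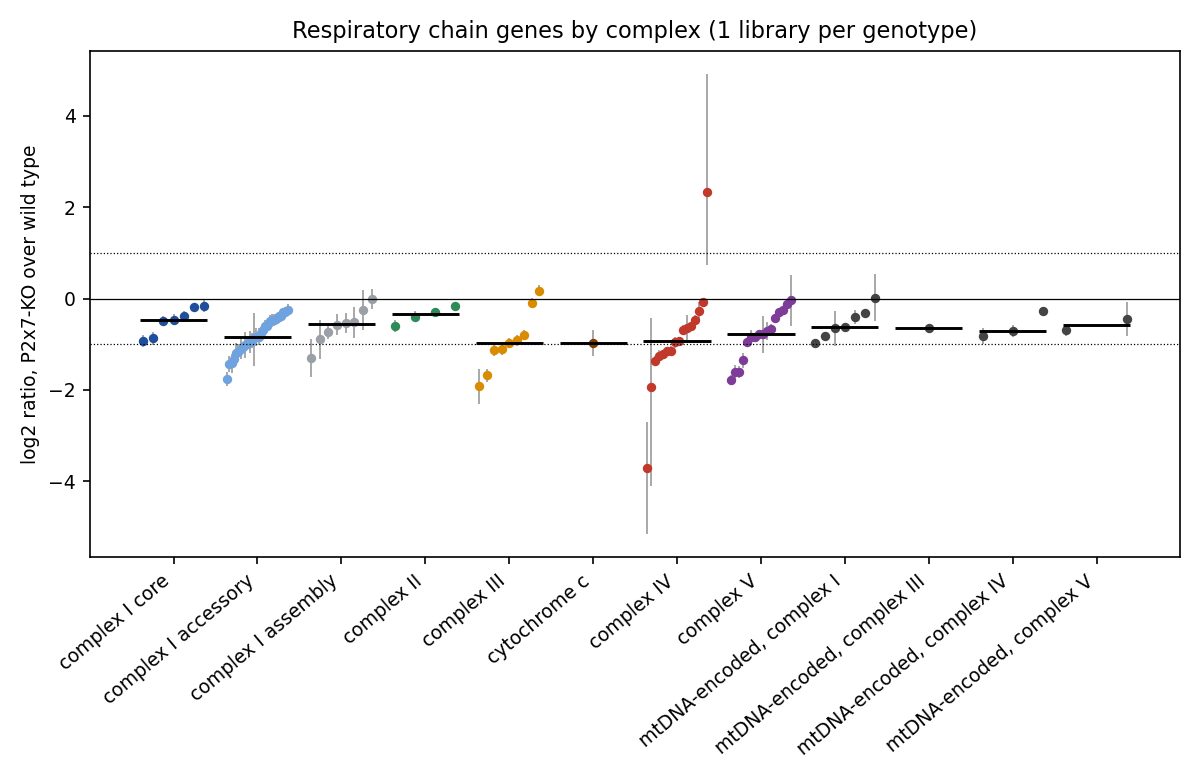
The log2 ratio of each respiratory chain gene with at least 20 counts, P2x7-KO-labelled library over wild-type-labelled library (y axis), by complex (x axis), with exact 95% counting intervals as vertical lines, group medians as black bars, equality as the solid line and 2-fold as dotted lines. Most genes sit below equality, with medians from -0.35 for complex II to -0.97 for complex III, and Cox6a2 and Cox4i2 stand furthest out.

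Complex I takes electrons from NADH. Its 7 nuclear core subunits, which hold the flavin and the iron-sulfur clusters, were lower in every case but by less than 2-fold, with a median log2 ratio of -0.46 and 2 of 7 past 1.5-fold. Ndufs1, the largest iron-sulfur subunit, had 900 counts in the wild-type-labelled library and 842 in the P2x7-KO-labelled library, 1.12-fold lower (1.02 to 1.23). Ndufv1, which binds NADH and flavin, had 1266 and 1015 counts, 1.31-fold lower (1.20 to 1.42). Before adjustment both subunits were thus closer to level than most of the complex. With length and GC adjusted Ndufs1 was at a log2 ratio of -0.40, below the core median of -0.22, and Ndufv1 was at -0.06. Furthest from equality among the core were the iron-sulfur subunit Ndufs7, at 1218 and 670 counts (1.90-fold lower, 1.73 to 2.09), and Ndufs3, at 1104 and 632 counts (1.83-fold lower, 1.66 to 2.02). Between them lay Ndufv2, at 1369 and 1019 counts (1.41-fold lower), and Ndufs8, at 1191 and 907 (1.38-fold lower).

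The accessory subunits of complex I, which surround the core and are needed for its assembly and stability, had lower unadjusted ratios. Of 29 genes 28 were counted, with a median log2 ratio of -0.84, 19 at least 1.5-fold lower and 9 at least 2-fold lower. The median became -0.24 with length and GC adjusted, close to the -0.22 of the core. It stayed further from that of the core with length alone (-0.27 against -0.17) and with coding length (-0.40 against -0.27). Ndufa2, of the NADH-oxidising arm, had 1541 counts in the wild-type-labelled library and 478 in the other, 3.38-fold lower (3.04 to 3.75). Ndufa12 had 1029 and 399 counts (2.70-fold lower, 2.40 to 3.04), Ndufb2 had 697 and 273 (2.67-fold, 2.32 to 3.09), and Ndufa3 had 943 and 395 (2.499-fold, 2.22 to 2.82). The other accessory genes past 2-fold were Ndufa5 (520 and 238 counts), Ndufs6 (758 and 353), Ndufb6 (492 and 240), Ndufb7 (2067 and 1040) and Ndufc1 (291 and 151), at 2.02-fold to 2.29-fold lower. Closest to equality were Ndufc2, at 870 and 766 counts (1.19-fold lower, 1.08 to 1.31), and Ndufa6, at 1443 and 1234 (1.22-fold lower, 1.13 to 1.32). The accessory subunits thus ranged from near equality to more than 3-fold within the same complex. Ndufa7 fell short of the count minimum with 5 and 1 counts, so no direction is read for it.

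Assembly factors of complex I, which act on the complex while it is built and are absent from the finished enzyme, had a median log2 ratio of -0.55 over 8 genes. Ndufaf5, an enzyme that modifies the Ndufs7 protein, had 167 and 71 counts and was the only one of the 8 past 2-fold (2.46-fold lower, 1.85 to 3.30). Ndufaf6 had 128 and 72 counts (1.86-fold lower, 1.38 to 2.52), Atp5sl, whose name recalls ATP synthase, 857 and 540 (1.66-fold, 1.49 to 1.85), and Ndufaf3 380 and 268 (1.48-fold, 1.27 to 1.74). Ndufaf7, a methyltransferase, had 332 and 346 counts, a scaled level 1.004-fold lower (0.861 to 1.17). The interval of Ndufaf2, at 95 and 84 counts, also included equality (1.18-fold lower, 0.873 to 1.61). A difference within that interval was not detectable at this depth.

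Complex II, the succinate dehydrogenase shared with the citric acid cycle, is wholly nuclear-encoded and had the unadjusted median nearest to equality, with a log2 ratio of -0.35 and 0 of 4 genes past 2-fold. Its transcripts are long, and its place after adjustment depended on the fit. With length and GC its median was -0.27, lower than the -0.22 and -0.24 of the core and accessory subunits of complex I. With length alone it was -0.24, between the core (-0.17) and accessory (-0.27) subunits. With coding length it was -0.155, nearer to equality than both (-0.27 and -0.40). Sdha, the flavoprotein, had 3379 and 3155 counts (1.12-fold lower, 1.07 to 1.18). Sdhb, the iron-sulfur subunit, had 1254 and 868 counts (1.51-fold lower, 1.39 to 1.65) and was the single member past 1.5-fold. The membrane anchors Sdhc and Sdhd lay between them, with 1209 and 964 counts (1.31-fold lower, 1.21 to 1.43) and 1673 and 1419 counts (1.23-fold lower, 1.15 to 1.33).

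Complex III, which passes electrons from ubiquinol to cytochrome c, held members on both sides of equality. Its median log2 ratio was -0.97 over 9 genes, with 4 at least 2-fold and 7 at least 1.5-fold lower. Uqcrc1 and Uqcrc2 encode the paired core proteins of the complex, which are present in equal number in the enzyme, but their mRNAs differed. Uqcrc1, on chromosome 9 from 108936633 to 108949623 (plus strand, mm10), had 278 counts in the wild-type-labelled library and 77 in the P2x7-KO-labelled library, or 22.9 and 6.05 CPM (scaled counts per 1000000). That is 3.78-fold lower (2.93 to 4.93). Uqcrc2, on chromosome 7 from 120635176 to 120659524 (plus strand), had 1642 and 1616 counts, or 135.0 and 126.9 CPM, with an interval that included equality (1.06-fold lower, 0.992 to 1.14).

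Of the redox subunits of complex III, Uqcrfs1, the Rieske iron-sulfur protein, had 964 and 1140 counts and was higher in the P2x7-KO-labelled library (1.13-fold, 1.04 to 1.23). Cyc1, cytochrome c1, had 1805 and 1092 counts (1.73-fold lower, 1.604 to 1.87). So the catalytic subunits of this complex lay in opposite directions. Its small subunits were all lower: Uqcr11 with 1721 and 562 counts (3.21-fold, 2.91 to 3.53), Uqcr10 with 1574 and 749 (2.20-fold, 2.02 to 2.40) and Uqcrb with 1551 and 751 (2.16-fold, 1.98 to 2.36). Uqcrh and Uqcrq fell just short of 2-fold, at 1.96-fold and 1.89-fold lower. Cycs, the mobile carrier cytochrome c, had 289 and 154 counts (1.96-fold lower, 1.61 to 2.41).

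Complex IV reduces oxygen and has tissue-specific isoforms for several of its small subunits. Of its 20 nuclear genes 16 were counted, with a median log2 ratio of -0.94, 7 at least 2-fold lower and 1 at least 2-fold higher. Among the common isoforms, Cox7b had 2346 and 951 counts (2.58-fold lower, 2.39 to 2.79), Cox7a2 had 1673 and 734 (2.39-fold, 2.19 to 2.61), and Cox6c had 2534 and 1138 (2.33-fold, 2.17 to 2.502). Cox6b1, at 2518 and 1183 counts, and Cox6a1, at 2508 and 1186, were 2.23-fold and 2.21-fold lower. Lower by less were Cox4i1, the largest nuclear-encoded subunit of the complex, with 5390 and 3701 counts (1.53-fold, 1.46 to 1.59), Cox8a with 2563 and 1676 (1.601-fold, 1.51 to 1.70) and Cox5a with 1661 and 1250 (1.39-fold, 1.29 to 1.498). Ndufa4, named for complex I but a complex IV subunit, had 1524 and 823 counts (1.94-fold lower, 1.78 to 2.11). Cox7a2l had 2416 and 2398 counts, with an interval that included equality (1.06-fold lower, 0.996 to 1.12).

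Isoforms known from other tissues were at low counts apart from Cox6b2, and 2 of them stood furthest from equality of all respiratory chain genes. Cox6a2, the heart and muscle isoform of Cox6a, had 93 counts in the wild-type-labelled library and 7 in the P2x7-KO-labelled library, or 7.65 and 0.550 CPM, 13.9-fold lower (6.49 to 35.6). It lies on chromosome 7 from 128205435 to 128206387 (minus strand, mm10), where 10.3% of its exon bases overlap Itgad, which itself had 16 and 13 counts. Cox7a1, another heart and muscle isoform, had 16 and 4 counts (4.19-fold lower, 1.35 to 17.2). Cox4i2, the isoform known from lung, was the opposite, with 3 and 18 counts (5.73-fold higher, 1.67 to 30.4), and was the only nuclear gene past 2-fold upward. Cox6b2, known from testis, had 490 and 427 counts, close to level (1.20-fold lower, 1.05 to 1.37). The isoform genes Cox7b2, Cox8b, Cox8c and Ndufa4l2 had 0 counts in both libraries, where 3 counts, taken as the limit of detection, are worth 0.247 and 0.236 CPM.

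In complex V the alpha and beta chains were less than 1.5-fold lower before adjustment and several small subunits more than 2-fold lower. Its 16 genes had a median log2 ratio of -0.78, with 4 at least 2-fold and 11 at least 1.5-fold lower. The catalytic head is built of alpha and beta chains: Atp5a1 (alpha) had 11902 and 11502 counts (1.08-fold lower, 1.06 to 1.11) and Atp5b (beta) had 15369 and 11900 (1.35-fold lower, 1.32 to 1.39). With length and GC adjusted Atp5b was at a log2 ratio of -0.30, close to the complex V median of -0.31. Atp5e, the epsilon chain of the central stalk, had 2661 and 807 counts, or 218.7 and 63.4 CPM, 3.45-fold lower (3.19 to 3.74). Atp5c1, the gamma chain of the same stalk, had 3602 and 3151 counts (1.197-fold lower, 1.14 to 1.26), between the alpha and beta chains. The epsilon chain thus stood apart from the gamma chain of its own stalk by more than counting error.

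The membrane subunits of complex V ranged from equality to about the ratio of Atp5e. Atp5k (subunit e) had 1258 and 431 counts (3.06-fold lower, 2.74 to 3.42) and Atp5j2 (subunit f) had 2039 and 701 (3.05-fold lower, 2.79 to 3.32). Atp5l (subunit g) had 555 and 356 (1.63-fold lower, 1.43 to 1.87). However, 84.8% of the 50-base windows of Atp5l occur in other transcripts such as Gm10221, so its counts are uncertain. For Atp5k and Atp5j2 the share was 1.2% and 3.8%. The 3 genes Atp5g1, Atp5g2 and Atp5g3 encode the same mature c-ring protein with different import sequences. Atp5g1 had 1090 and 448 counts (2.55-fold lower, 2.28 to 2.85), Atp5g3 had 2738 and 1609 (1.78-fold lower, 1.67 to 1.90), and Atp5g2 had 55 and 56 (1.03-fold lower, 0.696 to 1.52). The 3 c-ring genes therefore did not share a ratio, though 87.4% of the 50-base windows of Atp5g2 and 66.0% of those of Atp5g1 occur in other transcripts such as Gm10175 and Gm10039, so their counts are uncertain. Atp5j, at 892 and 519 counts (1.799-fold lower, 1.61 to 2.01), shares 19.1% of its exon bases with Gabpa, which was 2.16-fold higher (1.95 to 2.39).

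**Figure D2:**
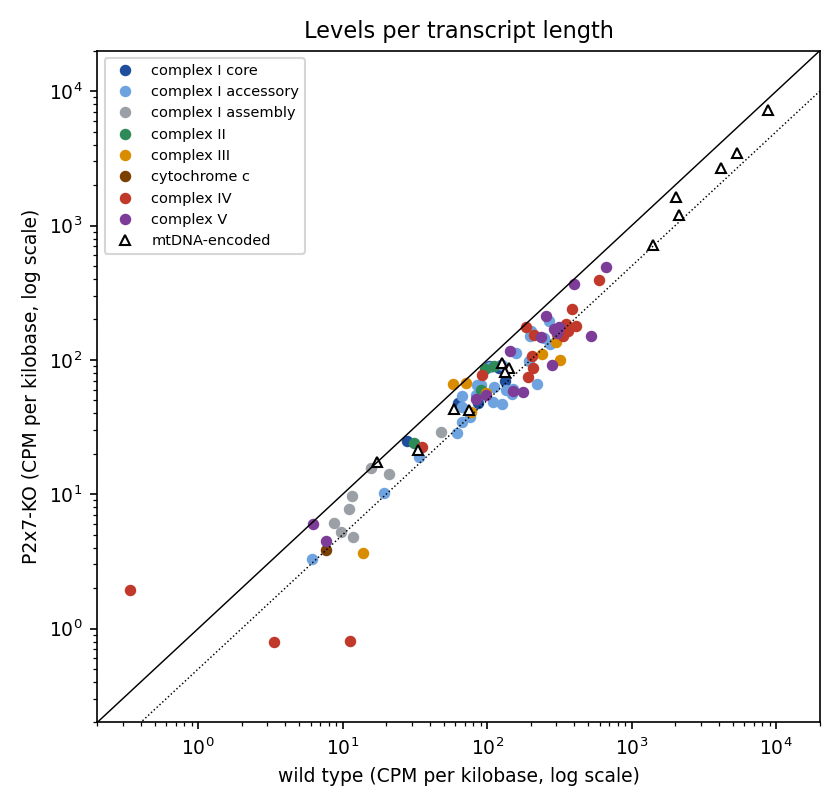
Level per transcript length of each counted gene, as CPM per kilobase on log axes, in the wild-type-labelled library (x axis) and the P2x7-KO-labelled library (y axis), with equality as the solid line and 2-fold lower as the dotted line. Most points lie between both lines, COX1 is at the top right, and Cox6a2 and Cox7a1 lie below the dotted line at low level.

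Levels per kilobase of transcript were similarly ordered in both libraries, with a Pearson correlation of 0.94 and a Spearman correlation of 0.93 of the log2 levels over the 89 nuclear members, whose points share library and transcript length. On this scale complex V was the most abundant nuclear group in the wild-type-labelled library, at a median of 244.4 CPM per kilobase, followed by complex IV at 207.0. The accessory and core subunits of complex I (110.9 and 103.0), complex III (97.6) and complex II (93.0) were close together, and complex I assembly factors lay far lower, at 11.7. In the P2x7-KO-labelled library the same medians were 132.5 for complex V, 128.1 for complex IV, 59.8 and 69.4 for accessory and core complex I, 66.9 for complex III, 72.6 for complex II and 8.74 for the assembly factors. Complex II thus had the lowest median of the enzyme complexes in the wild-type-labelled library and the third highest in the other.

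The mitochondrial genes differed in level far more than in ratio. COX1, the catalytic subunit of complex IV, had 165280 counts in the wild-type-labelled library and 142304 in the P2x7-KO-labelled library (1.22-fold lower, 1.21 to 1.22), and made up 42.95% and 48.7% of mitochondrial mRNA counts. The complex I subunits ND1, with 62227 and 42231 counts, and ND2, with 26798 and 15879, were 1.54-fold (1.52 to 1.56) and 1.77-fold (1.73 to 1.80) lower. ND4 had 23589 and 12669 counts and was the lowest of the 13 (1.95-fold, 1.91 to 1.99), while ND5, at 44968 and 37659, was 1.25-fold lower (1.23 to 1.27). CYTB, cytochrome b of complex III, had 57799 and 38846 counts (1.56-fold lower, 1.54 to 1.58). The long mRNAs of one polycistronic strand thus differed among themselves by more than counting error. ND6, the only gene here read from the opposite strand, had 793 and 629 counts (1.32-fold lower, 1.19 to 1.47).

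The genes that lie between COX1 and ND4 on the mitochondrial map were all at much lower counts. COX2 had 1186 and 756 counts (1.64-fold lower, 1.498 to 1.80), ATP6 had 1093 and 710 (1.61-fold, 1.47 to 1.77), and COX3 had 713 and 423 (1.76-fold, 1.56 to 1.995). ATP8, with 145 and 111 counts, and ND3, with 141 and 94, were 1.37-fold (1.06 to 1.77) and 1.57-fold (1.20 to 2.06) lower. ND4L had 62 and 66 counts, and its interval included equality (log2 ratio 0.02, -0.50 to 0.55). So a subunit of complex IV such as COX2 had under 1% of the counts of COX1, at 0.308% against 42.95% of the mitochondrial mRNA counts.

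A copy of this stretch of mitochondrial DNA lies in the nuclear genome on chromosome 1 (mm10, GENCODE M21 pseudogenes between 24611535 and 24616197, minus strand). COX2, ATP6, COX3, ND3 and ND4L were each identical to their copy over 98.3% to 99.9% of the gene, ND4 over 63.6%, and COX1 matched its copy over 483 bases with 1 mismatch. The windows below show how close the copies are: bases 1063 to 1122 of COX1 (chrM:6390-6449) with the matching stretch of its chromosome 1 copy, capitals marking the A1066T difference (counted from the first base of the gene), and then bases 1 to 60 of COX2 (chrM:7013-7072) with its copy.
COX1: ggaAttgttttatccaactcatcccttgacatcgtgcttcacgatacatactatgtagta
COX1 copy Gm29216: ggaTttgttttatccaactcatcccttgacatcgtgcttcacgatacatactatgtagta
COX2: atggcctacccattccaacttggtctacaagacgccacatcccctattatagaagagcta
COX2 copy Gm28661: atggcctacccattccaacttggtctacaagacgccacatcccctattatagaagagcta
Of the 50-base windows of COX2, 100% occur in another transcript, and for ATP6, COX3, ND3 and ND4L the share was 98% to 99.9%. For ND4 it was 62.2%, for COX1 51.1%, and for ND1, ND6, CYTB and ATP8 0.0%. Only annotated transcripts were searched. ATP8 (chrM:7766-7969) lies between COX2 and ATP6 on the map, and both of these have copies in the chromosome 1 stretch. The 0.0% of ATP8 therefore does not show that it has no copy. Gm10222, the copy of ND4L, had 79 and 86 counts against 62 and 66 for ND4L itself. The sources used here do not give how the authors' counting treated reads that match several places, so the counts of these genes are uncertain, and the part of the copies in their low level was not tested. Over the 6 mitochondrial genes with less than 25% of windows shared, the median log2 ratio was -0.54 in place of -0.64. Of the 6, 3 were at least 1.5-fold lower, against 18.9% of all genes. The 6 include ATP8 (log2 ratio -0.45), so they are not all known to lie outside the copy, and a median without ATP8 was not taken.

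**Figure D3:**
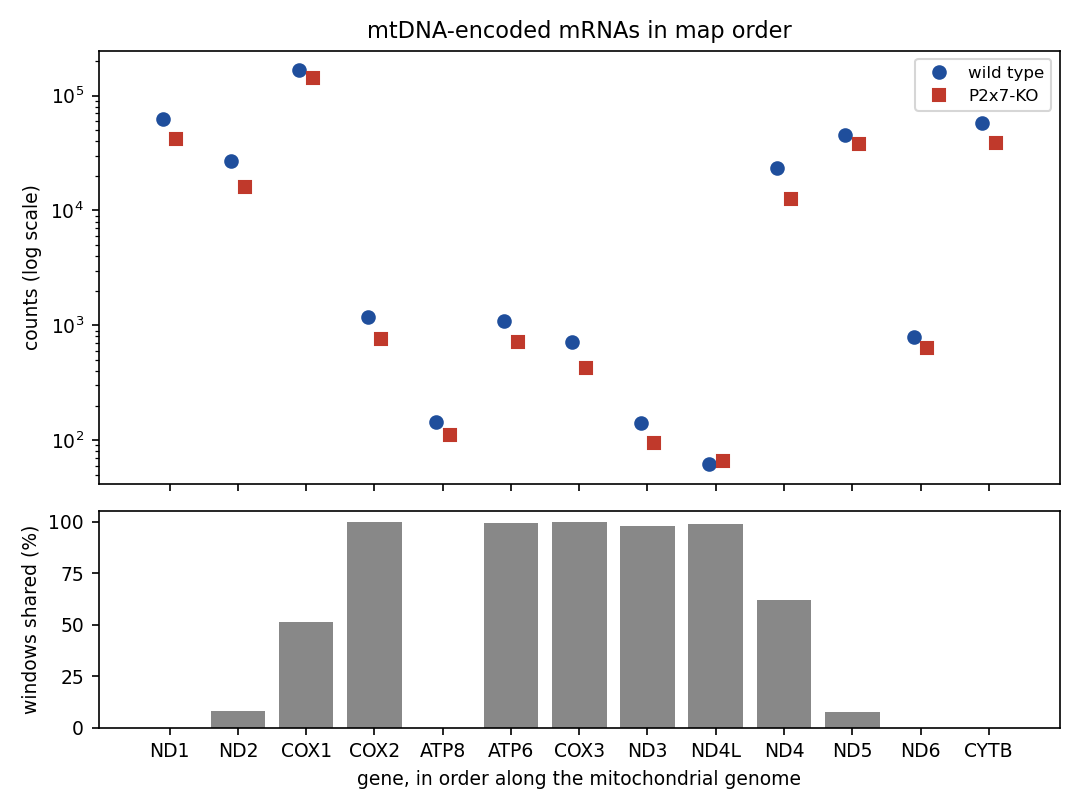
Counts on a log axis of the 13 mitochondrial mRNAs in map order in the wild-type-labelled library (circles) and the P2x7-KO-labelled library (squares), above the percentage of each gene's 50-base windows that occur in another transcript (bars). Among the genes with 98% or more of their windows shared no count exceeds 1186, while ND1, ND2, COX1, ND4, ND5 and CYTB lie at 12669 or more and ATP8 and ND6, with 0.0% shared, at 793 or less. Only annotated transcripts were searched, so the 0.0% of ATP8, which lies between COX2 and ATP6, does not show that it has no copy.

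Transcript length went with these ratios, in respiratory chain genes as in all genes. The 89 counted nuclear members had a median transcript length of 758 bases, against 2503 for all genes. Over all 12669 counted genes with a length, the log2 ratio correlated with log2 length at a Pearson correlation of 0.36 and a Spearman correlation of 0.43, and over the 89 nuclear members at 0.33 and 0.49, as a description across genes of the same pair of libraries. For transcripts under 500 bases the median log2 ratio was -0.83 over 599 genes in all and -1.19 over 11 nuclear members. From 500 to 700 bases it was -0.61 over all genes and -1.02 over 26 members, and from 700 to 1000 bases -0.48 and -0.68 over 18 members. From 1500 to 2500 bases the values were -0.14 and -0.34 over 12 members, and from 4000 bases, where no member lies, 0.46. Members were thus below the genes of their own length band in each of these bands, and their distance from the median of all genes shrank when length was taken into account.

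**Figure D4:**
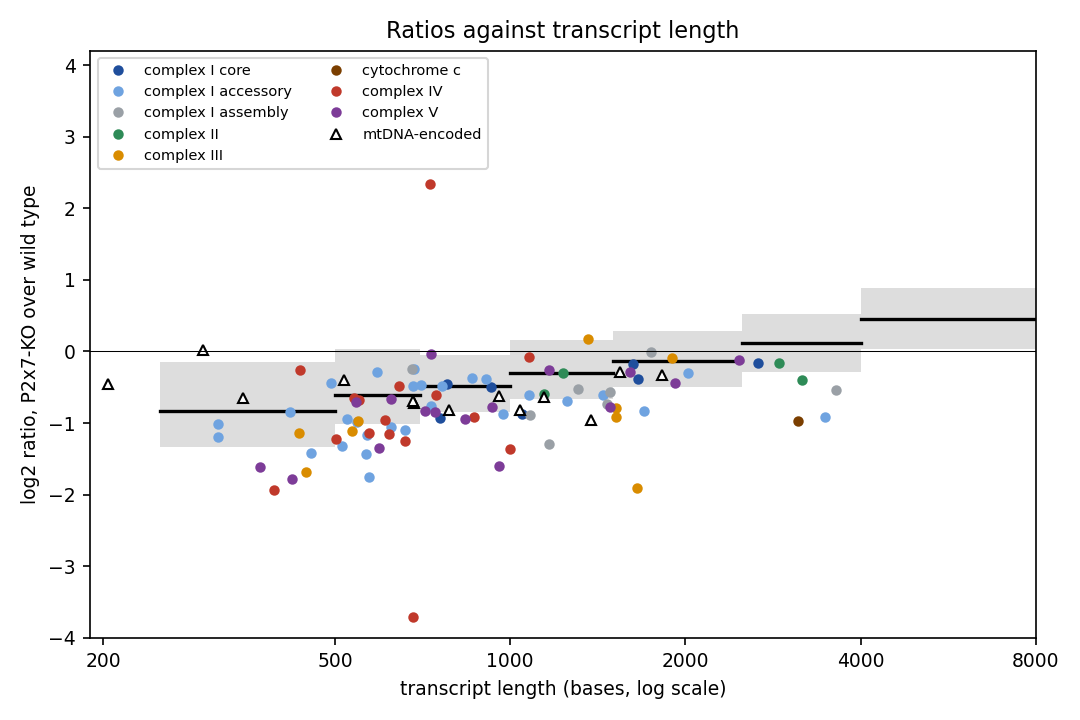
The log2 ratio of each counted respiratory chain gene, P2x7-KO-labelled library over wild-type-labelled library (y axis), against transcript length in bases on a log axis (x axis), with the median (black lines) and middle 50% (grey) of all genes in each length band. The all-gene median climbs from -0.83 under 500 bases to 0.46 from 4000 bases, most members sit at or below it, and Uqcrc1 and Cox6a2 lie far under their bands.

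After a smooth fit of the ratio on length over all genes, the median log2 ratio of the nuclear members was -0.30 and 67 of 89 lay below zero. Adding GC content to the fit gave -0.33 and 71 of 89, and a fit on coding length, added after seeing the data, gave -0.40 and 77 of 89. The number at least 2-fold lower went from 25 to 6 (6.74%, against 5.58% of all genes), 10 (11.2%, against 5.47%) and 8 (8.99%, against 5.67%) in the same order. At least 1.5-fold lower were 19 (21.3%, against 13.9%), 24 (27.0%, against 13.3%) and 24 (27.0%, against 14.4%). With length alone the share past 2-fold thus came near that of all genes, and it stayed above it with GC content or coding length. After each adjustment 1 nuclear member, Cox4i2, was at least 2-fold higher, against 8.94%, 8.12% and 10.2% of all genes, and the same single member was at least 1.5-fold higher, against 17.3%, 15.2% and 21.2%.

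Under all 3 adjustments 4 nuclear members were at least 2-fold lower: Uqcrc1, Cox6a2, Ndufa2 and Atp5j2. With length and GC in the fit their log2 ratios were -1.55 for Uqcrc1, -3.21 for Cox6a2, -1.09 for Ndufa2 and -1.27 for Atp5j2. Genes measured on a long transcript form depended on which length was used: Cycs had -0.97 before adjustment, -1.38 with length and GC and -0.42 with coding length, and Ndufab1, the mitochondrial acyl carrier protein, -0.92, -1.27 and -0.55. Atp5e, at -1.79 before adjustment, was at -1.01 with length and GC, and Atp5a1, at -0.12, was at -0.13. The distance between the epsilon and alpha chains therefore shrank with the adjustment. For the mitochondrial genes the medians were -0.13 with length, -0.43 with length and GC and -0.505 with coding length. In the same order 1 (7.69%), 4 (30.8%) and 4 (30.8%) were at least 1.5-fold lower, against 13.9%, 13.3% and 14.4% of all genes. With length alone the share was thus below that of all genes. The 13 mitochondrial genes have a median GC content of 37.1%, against 51.3% for the nuclear members.

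**Figure D5:**
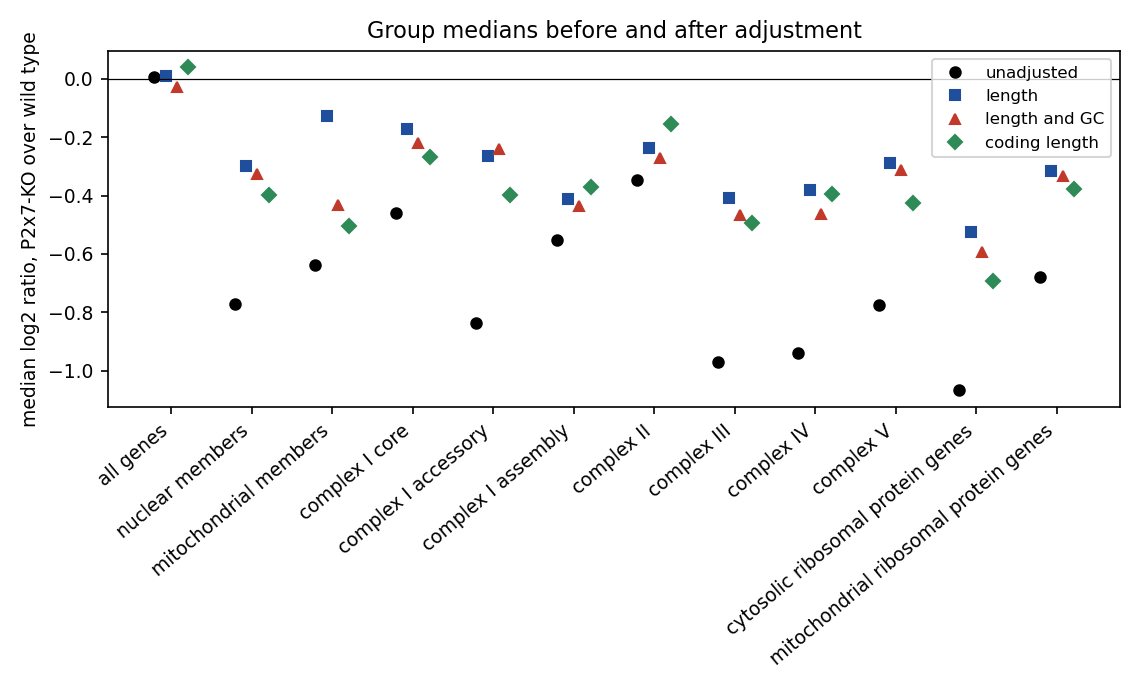
Median log2 ratio, P2x7-KO-labelled library over wild-type-labelled library (y axis), of all genes, of the respiratory chain groups and of 2 sets of ribosomal protein genes (x axis), before adjustment (circles) and after a fit on length (squares), length and GC (triangles) or coding length (diamonds). The nuclear members go from -0.77 to between -0.30 and -0.40, and all plotted groups of respiratory chain genes stay under zero.

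Beside other gene sets of mostly short transcripts, the respiratory chain genes were not the lowest. The 83 counted cytosolic ribosomal protein genes had a median log2 ratio of -1.07, and with length and GC adjusted it was -0.59. Of these, 46 (55.4%) were at least 2-fold lower, against 8.95% of all genes. The 77 mitochondrial ribosomal protein genes, whose products help translate the 13 mitochondrial mRNAs, had a median of -0.68. It was -0.33 after the adjustment, the value of the nuclear respiratory chain genes. Of the 77, 9 (11.7%) were at least 2-fold lower, near the 8.95% of all genes. Whether these sets differ from the respiratory chain genes was not tested.

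Genes that work with the respiratory chain but lie outside the name rule had unadjusted medians nearer to equality, but not all of them with length and GC adjusted. Of 40 assembly factors with other names 5 (12.5%, against 8.95% of all genes) were at least 2-fold lower and 1 higher. Their median log2 ratio was -0.35 before adjustment and -0.33 with length and GC adjusted, the latter the same as for the nuclear members. With length alone it was -0.27, against -0.30 for the nuclear members. With coding length the sets were further apart, at -0.06 against -0.40. The 5 were Pet100, at 660 and 231 counts (2.99-fold, 2.57 to 3.49), Uqcc2, at 850 and 347 (2.56-fold, 2.26 to 2.91), Sco2, at 63 and 27 (2.44-fold, 1.53 to 3.99), Cox20, at 512 and 237 (2.26-fold, 1.94 to 2.65), and the copper chaperone Cox17, at 68.4 and 30.8 CPM (2.22-fold, 1.97 to 2.51). Pet117 had 21 and 44 counts (2.002-fold higher, 1.17 to 3.54). Of 23 genes for maintenance and transcription of mitochondrial DNA 1 was past 2-fold, downward (4.35%, against 8.95% of all genes). This was Slirp, which stabilises mitochondrial mRNAs, at 578 and 162 counts (3.74-fold lower, 3.13 to 4.47). The median of the 23 was -0.16 before adjustment, -0.10 with length, -0.32 with length and GC and -0.165 with coding length. Of 23 genes for ubiquinone synthesis and carriers Coq4 alone (4.35%, against 8.95% of all genes) was past 2-fold, at 270 and 136 counts (2.08-fold lower, 1.69 to 2.57). The median of this set was -0.29 before adjustment, -0.06 with length, -0.19 with length and GC and -0.16 with coding length.

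Of 14 nuclear regulators of mitochondrial genes 12 were counted, with a median log2 ratio of 0.20. It stayed above zero with length (0.11) and with coding length (0.18), and turned to -0.13 with length and GC adjusted. Among the 12 there were 0 at least 2-fold lower and 2 (16.7%) higher, against 8.95% and 10.8% of all genes. These 2 encode subunits of GABP, which binds the ETS motif named above. Gabpa had 553 and 1250 counts (2.16-fold higher, 1.95 to 2.39) and Gabpb2 had 1126 and 2427 (2.06-fold higher, 1.92 to 2.21). With length and GC adjusted their log2 ratios were 0.45 and 0.32, under 2-fold for both. Over the 12 regulators, 0 were at least 2-fold higher with length, against 8.94% of all genes. With length and GC 1 was (8.33%, against 8.12%), which was Rxra at a log2 ratio of 1.18. With coding length 2 were (16.7%, against 10.2%). Before adjustment Rxra had 202 and 376 counts (1.78-fold higher, 1.495 to 2.12).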

How the data were processed

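RNA had been sequenced in 2 libraries, 1 for each genotype label. The deposited table gives raw counts per gene for 46095 genes, and reads had been aligned with HISAT2 2.0.4 to mm10, per the submitters' processing notes. How reads were counted (program, annotation, strand, reads matching several places) is stated nowhere in the sources used here, so genes with near-identical copies or overlapping partners are uncertain. Both value columns were used (0 left out). Members and lists were chosen with earlier results of these data known.

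Counts were scaled by TMM over all genes (edgeR 4.0.16, R 4.3.3), and 3 counts were taken as the limit of detection. Ratios are of scaled counts, with exact Clopper-Pearson 95% intervals (scipy 1.17.1, Python 3.11.15). Reads are not independent molecules, so intervals and limits cover counting error only. Where both libraries together held at least 20 counts, a gene was taken as 2-fold or 1.5-fold apart where its ratio was that large and its interval excluded equality. Medians use log2 ratios with 0.5 added to each count. Transcript and coding lengths and GC content came from GENCODE M21 (mm10), matched for 107 of 107 members, and adjusted ratios are residuals of a loess fit (span 0.3) over 12669 genes. For Cycs, Ndufab1, Ndufaf4, Uqcrq and Sdhc the transcript used is a long form. A window counted as shared where its 50 bases occur in the transcript of another gene. Promoters came from RefSeq (GRCm38.p6), 0 for 17 nuclear members. The core NRF1 motif was taken after a longer form of it had been searched. The interval and the call rule were tested on simulated data.

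Genes named are, in each nuclear group, the 4 lowest and 2 highest by log2 ratio among those with at least 100 counts, all members past 2-fold, preset catalytic subunits, isoform sets, members below 20 counts and all 13 mitochondrial genes. Uqcrh, Uqcrq, Ndufab1, Ndufaf4, Atp5c1, Atp5j and Atp5l were added after their values were seen. A few members and markers covered by these choices are not reported here. Alternatives were total count, DESeq2 1.42.0, upper quartile and other TMM scalings, count minimums, and length, GC and coding-length adjustments.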

Additional observations from a re-analysis of the deposited data

How the results depend on the processing

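With 1 library per group, leaving out a library was not possible, and no value here has a replicate error. No paired analysis was possible because each group holds 1 library and the labels carry no replicate numbers. Scaling moved all log2 ratios together by -0.033 (upper quartile) to 0.068 (total count), and under the 4 other scalings the number of nuclear members at least 2-fold or 1.5-fold lower stayed within 1.5 times its value. With total count scaling 5 mitochondrial genes were at least 1.5-fold lower in place of 8. At a minimum of 100 counts, 0 nuclear members were at least 2-fold or 1.5-fold higher, since Cox4i2 has fewer counts.

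Length mattered most. Nuclear members at least 2-fold lower numbered 25 before adjustment, 6 with length, 10 with length and GC and 8 with coding length, and those at least 1.5-fold lower 56, 19, 24 and 24. Their median log2 ratio went from -0.77 to -0.30, -0.33 and -0.40. For mitochondrial genes the number at least 1.5-fold lower went from 8 to 1, 4 and 4, the number at least 1.5-fold higher from 0 to 1, 1 and 1 (ND4L), and the median from -0.64 to -0.13, -0.43 and -0.505. With length and GC 1 mitochondrial gene, ND4, was at least 2-fold lower. Nuclear members above zero numbered 2 of 89 before adjustment and 22, 18 and 12 after it, and mitochondrial genes 1 of 13 and then 4, 2 and 2. Among named members at least 1.5-fold lower before adjustment, log2 ratios turned direction for Cox8a (0.014 with length, 0.061 with length and GC), ND3 (0.22 with length) and Cox4i1 (0.014 with length and GC). Leaving out members with at least 25% of windows shared left 3 of 6 mitochondrial genes at least 1.5-fold lower, at a median of -0.54. ATP8 is among these 6, though it lies between COX2 and ATP6, which both have copies. The shared-window alternative and coding length were chosen after seeing the data. Low counts limit Cox4i2, Cox7a1, Ndufa7 and ND4L most, and the causes of these changes were not tested.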
